A study of Mus musculus with 39 samples.

Results

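The genes described here are the replication-dependent histone cluster genes of the mouse, measured in dissociated testis by single-cell RNA-seq. They are the genes of the feature list whose symbol begins with Hist1h, Hist2h, Hist3h or Hist4h, less the 3 testis genes Hist1h1t, Hist1h2aa and Hist1h2ba, which leaves 64 of 32285 genes. By class they are 5 linker histone H1 genes, 17 H2A, 17 H2B, 12 H3 and 13 H4 genes. The control library came from a Kdm6a fl/y; Cre- mouse testis and the knockout library from a Kdm6a fl/y; Ddx4-Cre+ testis, called cKO below, with 1 library for each genotype. Both carry the floxed Kdm6a allele on the X chromosome, and the control carries no Cre, so that the Cre itself and the loss of Kdm6a cannot be told apart. Ddx4 drives the Cre in germ cells and Kdm6a, also named Utx, codes for a demethylase of lysine 27 on histone H3. The labels used here give neither an age nor the number of animals behind a library. ATAC-seq (2 control and 3 cKO libraries) and CUT&Tag for H3K27me3 (2 control and 3 cKO libraries), both from cKIT+ spermatogonia of the same 2 genotypes, gave the state of the promoters.

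Replication-dependent histone genes supply the histones that package newly made DNA, and they are transcribed mainly in S phase. As a rule their transcripts have no introns and end in a stem-loop that is bound by SLBP and cut with the help of the U7 particle, in place of a poly(A) tail. For such transcripts 3′ libraries primed on poly(A) capture only a portion, and that portion was not measured here. In the testis, spermatogonia divide by mitosis and preleptotene cells make DNA once more before meiosis, while later spermatocytes and spermatids make none, and elongating spermatids replace most histones with transition proteins and protamines.

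The genes lie in tight clusters. On GRCm38.p6, the RefSeq build that corresponds to the mm10 named by the submitters, 63 of the 64 matched a single RefSeq gene. Of these, 28 lie on chromosome 13 between 23531044 and 23764412, 22 on chromosome 13 between 21715711 and 22043658, 10 on chromosome 3 between 96219885 and 96270192, 2 on chromosome 11 between 58948911 and 58955192 and 1 on chromosome 6 between 136803993 and 136804431. Hist1h2ap matched 2 near-identical RefSeq genes and is given without a position. Some H2B genes have long RefSeq spans: 14079 bases for Hist1h2bp, 37455 for Hist1h2be, 8282 for Hist1h2bc, 3788 for Hist1h2bq and Hist1h2br and 2667 for Hist2h2be. By comparison Hist1h2bm spans 483 bases and Hist1h4c 375. Which transcript forms of the long genes were counted, and how those forms end, was not measured.

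The promoters of 6 genes that carry the results are shown, each 300 bases from 250 before the RefSeq start site to 50 from it onwards, read 5′ to 3′ on the gene's own strand. The first 4 belong to genes that were high in spermatogonia and lower in cKO (the linker genes Hist1h1a and Hist1h1c, the H2B gene Hist1h2bm and the H4 gene Hist1h4c), and the last 2 to genes that were highest in round spermatids in both libraries (the H2B gene Hist1h2bp and the H4 gene Hist1h4a). Capitals mark exact matches to TATAAA (the letters of the TATA box), CCAAT (the CCAAT box), ATTTGCAT (an octamer known from H2B promoters) or AAACACA (a motif known from H1 promoters), or to the reverse complement of one of them. Matches are marked at any position in the window, so a marked stretch need not be a working element of the gene shown. The positions are, in the order shown, chr13:23763418-23763717 on the plus strand, chr13:23738557-23738856 on the plus strand, chr13:21721794-21722093 on the plus strand, chr13:23698409-23698708 on the minus strand, chr13:21787238-21787537 on the plus strand and chr13:23761200-23761499 on the minus strand.
Hist1h1a: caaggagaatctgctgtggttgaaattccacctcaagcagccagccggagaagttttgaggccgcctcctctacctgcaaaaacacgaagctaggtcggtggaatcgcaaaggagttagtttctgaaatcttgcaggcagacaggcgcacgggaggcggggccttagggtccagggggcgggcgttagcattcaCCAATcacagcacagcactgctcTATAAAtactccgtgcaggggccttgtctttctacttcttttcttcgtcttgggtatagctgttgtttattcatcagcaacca
Hist1h1c: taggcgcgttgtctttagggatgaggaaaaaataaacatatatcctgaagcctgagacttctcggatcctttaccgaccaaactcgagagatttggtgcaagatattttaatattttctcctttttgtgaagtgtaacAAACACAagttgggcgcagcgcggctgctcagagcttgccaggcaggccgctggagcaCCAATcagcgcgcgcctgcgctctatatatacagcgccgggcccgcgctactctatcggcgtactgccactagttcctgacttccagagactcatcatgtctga
Hist1h2bm: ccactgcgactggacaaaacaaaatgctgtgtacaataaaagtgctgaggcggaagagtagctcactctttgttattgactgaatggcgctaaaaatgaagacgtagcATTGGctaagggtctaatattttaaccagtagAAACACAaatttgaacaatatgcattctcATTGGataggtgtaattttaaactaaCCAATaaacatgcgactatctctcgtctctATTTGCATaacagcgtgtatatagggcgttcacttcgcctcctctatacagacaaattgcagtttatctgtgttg
Hist1h4c: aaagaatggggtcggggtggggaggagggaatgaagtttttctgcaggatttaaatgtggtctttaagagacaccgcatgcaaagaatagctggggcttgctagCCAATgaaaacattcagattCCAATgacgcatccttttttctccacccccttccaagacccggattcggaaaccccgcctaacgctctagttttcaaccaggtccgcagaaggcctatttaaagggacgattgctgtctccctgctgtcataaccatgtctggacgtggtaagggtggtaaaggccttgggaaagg
Hist1h2bp: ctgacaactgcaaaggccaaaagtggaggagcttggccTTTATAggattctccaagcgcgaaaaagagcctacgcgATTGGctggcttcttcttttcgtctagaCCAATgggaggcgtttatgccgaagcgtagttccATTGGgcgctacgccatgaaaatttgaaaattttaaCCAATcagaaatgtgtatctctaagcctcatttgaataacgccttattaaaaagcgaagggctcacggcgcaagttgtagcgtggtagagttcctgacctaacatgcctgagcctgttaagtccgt
Hist1h4a: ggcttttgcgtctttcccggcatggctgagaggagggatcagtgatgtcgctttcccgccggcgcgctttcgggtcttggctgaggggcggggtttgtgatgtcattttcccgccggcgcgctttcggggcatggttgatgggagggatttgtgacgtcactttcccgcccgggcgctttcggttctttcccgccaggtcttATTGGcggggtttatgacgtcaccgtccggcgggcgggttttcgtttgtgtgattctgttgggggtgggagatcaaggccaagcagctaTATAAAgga

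A promoter sequence was found for 57 of the 64 genes, and these promoters differed by class in the motifs they hold. CCAAT was found on either strand in all 5 H1, 16 H2A, 14 H2B and 10 H3 promoters but in 3 of 12 H4 promoters, against 37.4% of all 32851 RefSeq promoters of that length. TATAAA was found in 57.9% of the histone promoters and in 13.6% of all promoters, counted on either strand and at any position in the window. The octamer ATTTGCAT was present in 6 of 16 H2A and 5 of 14 H2B promoters and in none of the H1, H3 or H4 promoters, with 1.74% of all promoters holding it. The H2A matches all lie on the strand opposite to the gene and the H2B matches all on the strand of the gene. Windows of neighbouring genes can overlap: Hist1h2ae and Hist1h2bg hold the same octamer, as do Hist1h2ah and Hist1h2bk. AAACACA was present in 4 of 5 H1 promoters, in 1 H2A and in 1 H2B promoter, against 7.18% of all. In Hist1h1a and Hist1h1c the CCAAT box begins 56 and 54 bases before the start site, whereas in Hist1h4a the nearest match is on the opposite strand and the TATAAA match lies 41 bases past the annotated start. The TATAAA match of Hist1h2bp lies on the opposite strand, 212 bases before its start site. The same bases begin 33 bases before the start site of the neighbouring gene Hist1h2an, on the strand of that gene. A match describes the letters of this window only.

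Kept barcodes (3000 UMIs or more, a UMI being 1 captured transcript molecule) numbered 11252 in control and 8520 in cKO, with medians of 8410.5 and 8499 UMIs, and 30 barcodes occurred in both libraries. Cells were assigned to a stage by the marker list with the highest mean score, and the stages are named after those lists. Kdm6a itself had 39 UMIs in control and 10 in cKO spermatogonia, and 156 and 10 in early meiotic cells. Free RNA, read from barcodes with 10 to 100 UMIs, held the histone genes at 285.8 CPM (UMIs of a gene per 1000000 UMIs of the same barcodes) in control and 270.2 CPM in cKO. With 1 library for each genotype there is no test of genotype: intervals in parentheses are 95% and cover counting error only, and a gene is counted as lower or higher in cKO when it has 50 UMIs or more over both libraries in the cells compared and differs by 1.5-fold or more. Levels are in CPM and are not scaled by gene length, since each captured transcript is counted once at its end.

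Summed over the 64 genes, histone transcripts were most abundant in spermatogonia and at meiotic entry, were low in pachytene cells and were higher again in round spermatids. In control the sum was 2186 CPM in 266 spermatogonia, 702 CPM in 1301 early meiotic cells, 122 CPM in 1950 pachytene and later spermatocytes, 440 CPM in 1848 round spermatids and 104 CPM in 4637 elongating spermatids. In cKO it was 1494 CPM in 222 spermatogonia, 339 CPM in 839 early meiotic cells, 115 CPM in 1458 pachytene and later spermatocytes, 412 CPM in 1739 round spermatids and 76.9 CPM in 3320 elongating spermatids. Early meiotic cells were above round spermatids in control and below them in cKO, and the other stages kept their order. The pachytene and elongating sums lie below the level of free RNA in both libraries. On the log2 scale spermatogonia exceeded pachytene cells by 4.16 (4.10 to 4.22) in control and by 3.71 (3.63 to 3.78) in cKO, and round spermatids exceeded them by 1.84 (1.80 to 1.89) and 1.85 (1.79 to 1.90).

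**Figure D1:**
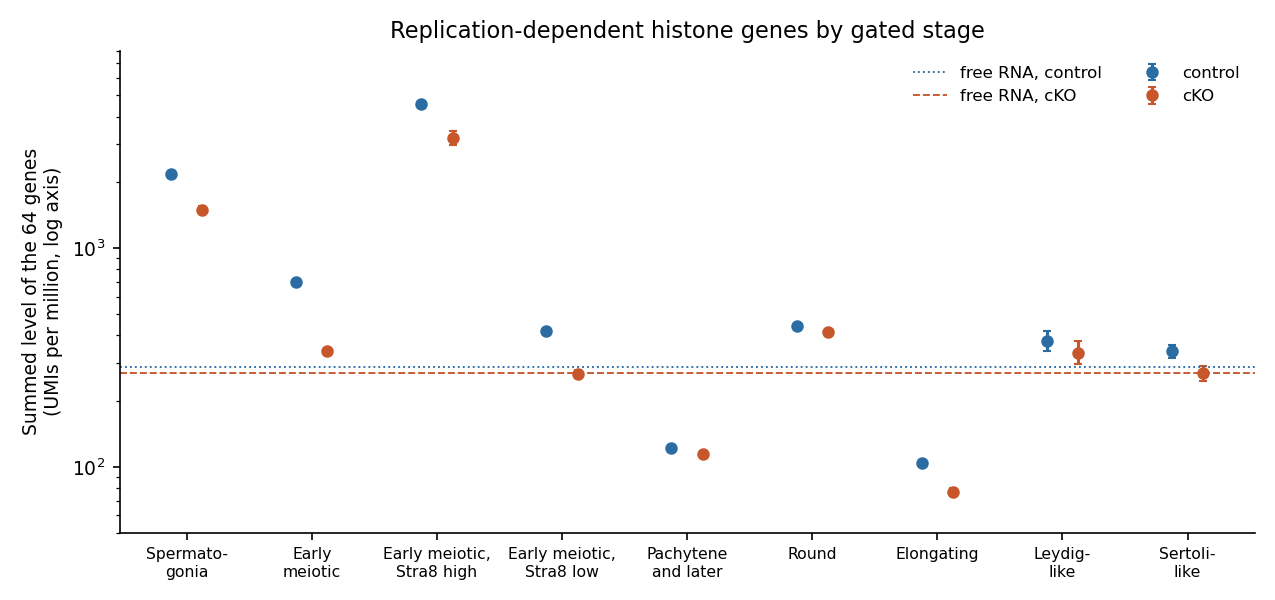
Summed level of the 64 genes in CPM (log axis) in each gated stage, control in blue and cKO in orange. Bars are 95% counting intervals, and the horizontal lines are the level in free RNA of each library; the highest point is the Stra8-high early meiotic cells of control at 4568 CPM.

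The early meiotic gate spans cells at meiotic entry, which make DNA, and later cells, which do not. It was therefore split at 2 UMIs of Stra8, the gene induced by retinoic acid at meiotic entry, a division chosen after the data were seen. The sum was 4568 CPM in the 142 Stra8-high control cells and 3195 CPM in the 36 Stra8-high cKO cells. These were the highest of any set of cells in both libraries, against 417 and 266 CPM in the Stra8-low remainder. The cKO value of the remainder (254 to 277 CPM) cannot be told from cKO free RNA at 270 CPM (248 to 294). Stra8-high cells made up 10.9% (9.27% to 12.7%) of early meiotic cells in control and 4.29% (3.02% to 5.89%) in cKO. Both the level within each range and the share of the Stra8-high range were thus lower in cKO, and the early meiotic ratio contains both. Other measures differed within both ranges. In the Stra8-low range Stra8 was at 6.61 CPM in control and 2.15 CPM in cKO, and Piwil1, a gene of later spermatocytes, at 719 and 932 CPM. The median depth there was 6756 and 8867 UMIs, and cells near the gate's edge made up 20.4% and 26.2%. In the Stra8-high range Piwil1 was at 184 CPM in control and 24.7 CPM in cKO, and the early meiotic marker Sycp1 at 1509 and 1141 CPM. Stra8 was at 960 and 1007 CPM in that range, and the median depth was 4318 and 5004.5 UMIs. Cells near the gate's edge made up 6.34% of the Stra8-high range in control and 19.4% in cKO. The part of these differences in the early meiotic result was not tested. In bulk or gated sums such as these, fewer cells in S phase and less histone RNA per S-phase cell cannot be told apart.

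A few genes held most of the histone UMIs. Of 61405 histone UMIs over both libraries, Hist1h2bp held 34.2%, and the 10 most abundant genes held 82.9%. Hist1h2bp was 29.7% of the control sum and 41.4% of the cKO sum, and Hist1h1a was 10.7% and 4.05%. A UMI was found for 62 of the 64 genes in control and for 57 in cKO. The 41 genes with 50 UMIs or more are described below, and the other 23 had 0 to 45 UMIs each and 290 in all, 2 of them with none.

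**Figure D2:**
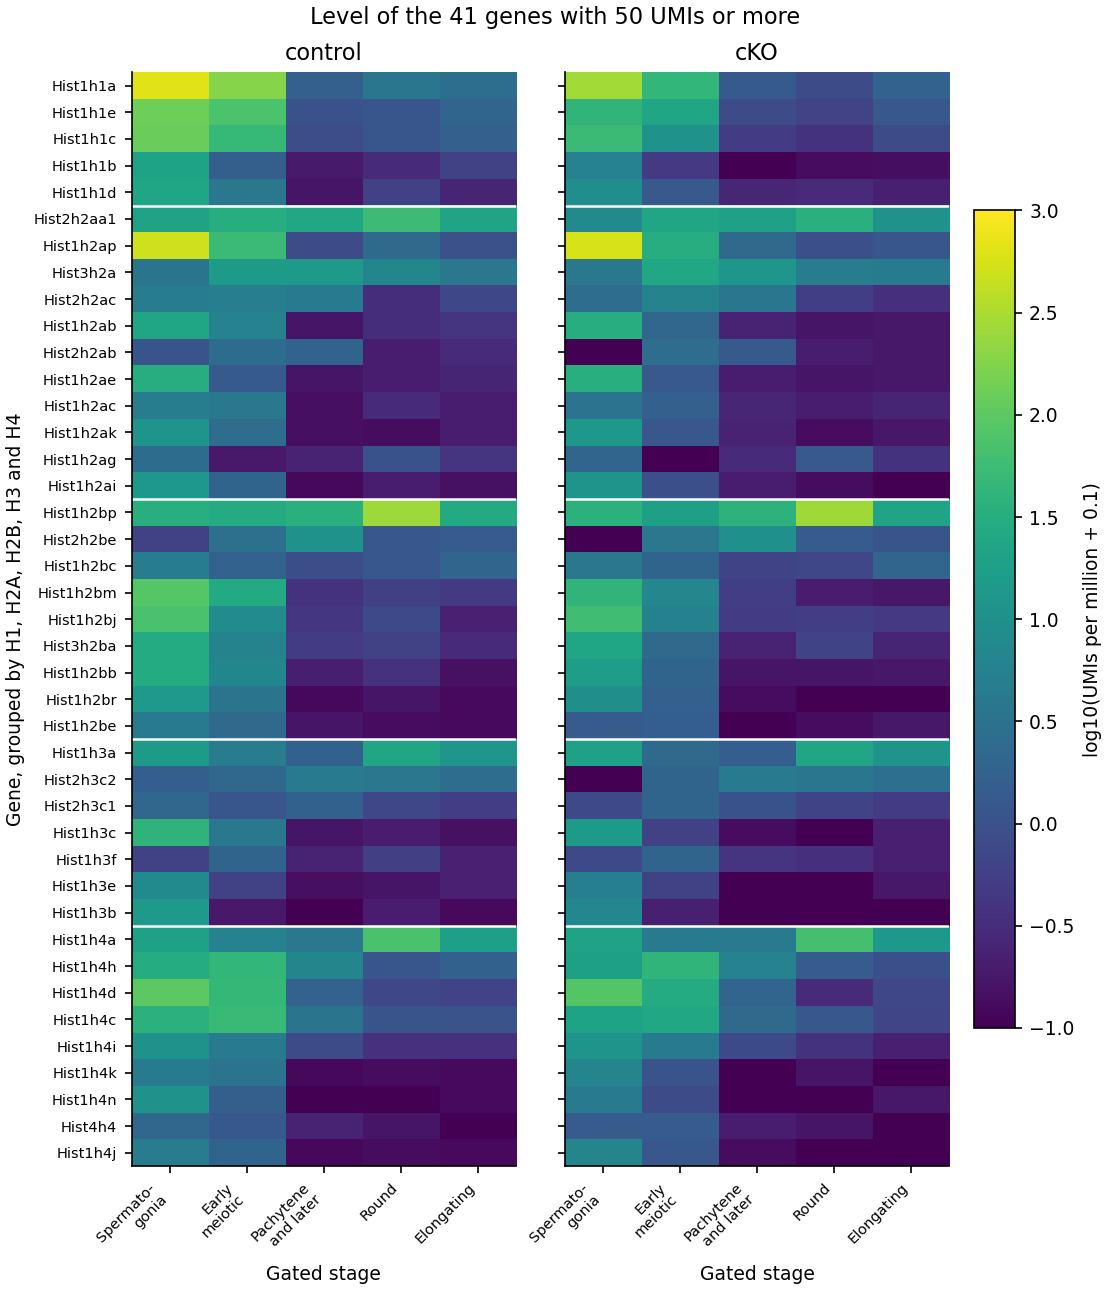
Level of each of the 41 genes, as log10(CPM + 0.1), in 5 gated germ-cell stages of the control (left) and cKO (right) library, with white lines between the classes H1, H2A, H2B, H3 and H4. Most rows are brightest in spermatogonia, and Hist1h2bp, Hist1h4a, Hist1h3a and Hist2h2aa1 are brightest in round spermatids.

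Among the 5 unsplit germ-cell stages, 29 of the 41 genes were highest in spermatogonia in control, and 26 of them also in cKO. In both libraries 6 were highest in early meiotic cells (among them the H4 genes Hist1h4h and Hist1h4c and the H2A gene Hist3h2a), 2 in pachytene and later cells (Hist2h2be and Hist2h3c2) and 4 in round spermatids, and 38 of the 41 had their highest stage in common. Among these unsplit stages all 5 H1 genes were highest in spermatogonia, as were 7 of 11 H2A, 7 of 9 H2B, 4 of 7 H3 and 6 of 9 H4 genes in control. Several were higher still in Stra8-high cells, a part of the early meiotic gate. In control Hist1h1a was at 1779 CPM there and 662 CPM in spermatogonia, Hist1h1e at 427 and 132, Hist1h1c at 342 and 120 and Hist1h2bm at 311 and 86.7. Others went the other way, among them Hist1h1b (4.92 and 20.7), Hist1h1d (3.69 and 22.7), Hist1h2ae (8.61 and 31.0) and Hist1h3c (27.1 and 40.4). The 3 genes whose highest stage differed, Hist2h3c1, Hist1h2be and Hist4h4, were below 5 CPM in every unsplit germ-cell stage. Some leads were small where the highest stage was shared. In control Hist3h2a was at 14.9 CPM in early meiotic cells and 14.3 CPM in pachytene and later cells. Hist2h2ac was at 4.98 CPM in control early meiotic cells and 4.93 CPM in control spermatogonia.

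Linker histones, which bind DNA between nucleosomes and help fold chromatin, were the class with the largest deficit in cKO. Their summed level in spermatogonia was 957 CPM in control and 387 CPM in cKO, a log2 ratio of -1.31 (-1.44 to -1.17). In Stra8-high early meiotic cells it was 2556 and 1259 CPM (-1.02, -1.21 to -0.83). In Leydig cells, which Ddx4-Cre does not target, it was 98.9 and 77.1 CPM (-0.36, -0.85 to 0.12), an interval that includes 0 and overlaps that of Stra8-high cells at its lower end. In Sertoli-gated cells, which also held early meiotic markers at a summed 1053 CPM in control and 1030 CPM in cKO, it was 91.4 and 46.7 CPM (-0.97, -1.32 to -0.63), and the part of those germ-cell transcripts in it was not tested. All 5 genes of the class were past the fold in spermatogonia.

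Hist1h1a, an H1 gene known from the testis and thymus, had the highest level of the 64 genes in control spermatogonia. It was at 661.6 CPM in control and 277.8 CPM in cKO spermatogonia (log2 ratio -1.25, -1.41 to -1.09), and at 1779 and 874 CPM in Stra8-high cells (-1.03, -1.26 to -0.80). In the whole early meiotic gate it was at 189 and 44.5 CPM (-2.09, -2.25 to -1.93), and in pachytene and later cells it was at 1.6 and 1.3 CPM. After thinning each cell to 3000 UMIs, 47.0% (40.9% to 53.2%) of control and 40.1% (33.6% to 46.9%) of cKO spermatogonia had a Hist1h1a UMI, against 1.98% and 2.02% of Leydig cells. Without thinning the shares in spermatogonia were 64.7% and 49.5%, at median depths of 6584 and 5690 UMIs.

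The other linker genes had the same direction. Hist1h1e, a main somatic subtype, was at 132 CPM in control and 41.6 CPM in cKO spermatogonia (-1.66, -2.08 to -1.27) and at 74.8 and 23.4 CPM in early meiotic cells. Hist1h1c, another somatic subtype, was at 120 and 52.7 CPM in spermatogonia (-1.19, -1.57 to -0.82) and at 47.6 and 11.3 CPM in early meiotic cells. Both were therefore at less than 50% of their control level in each of these stages. Hist1h1b was at 20.7 and 5.86 CPM and Hist1h1d at 22.7 and 9.11 CPM in spermatogonia, and the cKO value of Hist1h1b, from 9 UMIs, lies below its free RNA of 6.95 CPM. Over all kept cells the 5 genes were at 30.5 and 9.70 CPM (Hist1h1a), 10.9 and 3.97 (Hist1h1e), 8.17 and 3.10 (Hist1h1c), 1.07 and 0.273 (Hist1h1b) and 0.918 and 0.434 (Hist1h1d). In free RNA the direction was not shared: Hist1h1e was at 5.2 CPM in control and 12.9 CPM in cKO, and Hist1h1c at 28.4 and 35.8 CPM, above its level of 8.17 and 3.10 CPM in cells.

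H2A genes code for a core histone of the nucleosome, and their sum in spermatogonia was not lower in cKO. It was 634 CPM in control and 680 CPM in cKO (0.10, -0.02 to 0.22), and in Stra8-high cells 762 and 914 CPM (0.26, 0.02 to 0.50). Hist1h2ap made up most of the spermatogonial sum, at 515 CPM in control and 570 CPM in cKO spermatogonia (0.15, 0.01 to 0.28) and at 582 and 775 CPM in Stra8-high cells. The H2A gene Hist2h2aa1 was past the fold downwards in spermatogonia, with 41 UMIs in control and 12 in cKO (20.2 and 7.81 CPM; -1.37, -2.43 to -0.42). Its free RNA was at 20.1 CPM in control and 12.9 CPM in cKO. The counting intervals of cells and free RNA overlap in both libraries (4.03 to 13.6 and 8.44 to 18.9 CPM in cKO). Neither level can therefore be told from free RNA within counting error. Of the 64 genes Hist1h2ap was second to Hist1h1a in control spermatogonia and the most abundant one in cKO. In the whole early meiotic gate, with its smaller Stra8-high share in cKO, Hist1h2ap was at 52.4 and 31.0 CPM (-0.75, -0.97 to -0.54).

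The remaining H2A genes differed in their stages. In spermatogonia Hist1h2ab and Hist1h2ae were, like Hist1h2ap, not past the fold, at 22.2 and 31.2 CPM and at 31.0 and 31.9 CPM in control and cKO. In Stra8-high cells Hist1h2ab was at 57.8 and 24.7 CPM (-1.23, -2.91 to 0.10), the opposite direction to Hist1h2ap, and in the whole early meiotic gate it was at 5.91 and 1.97 CPM (-1.58). Hist1h2ai (13.3 and 11.7 CPM) and Hist1h2ak (11.8 and 13.7 CPM) were also highest in spermatogonia among the unsplit stages, with too few UMIs to be compared. The H2A genes of the chromosome 3 and 11 clusters were spread over more stages. Hist2h2aa1 was at 20.2, 30.7, 25.2, 54.6 and 21.2 CPM from spermatogonia to elongating spermatids in control and at 7.8, 23.5, 19.4, 34.1 and 10.8 CPM in cKO. Hist3h2a was at 3.4, 14.9, 14.3, 6.8 and 3.9 CPM in control and at 3.9, 24.2, 12.8, 4.8 and 4.2 CPM in cKO, and in early meiotic cells it was the only member past the fold upwards (0.70, 0.40 to 1.00). Over all kept cells Hist2h2aa1 was at 31.3 and 21.5 CPM, Hist1h2ap at 14.8 and 13.8, Hist3h2a at 9.11 and 8.87, Hist2h2ac at 2.34 and 1.92, Hist1h2ab at 1.15 and 0.777, Hist2h2ab at 0.993 and 0.707 and Hist1h2ae at 0.813 and 0.818 CPM. Hist1h2ac, Hist1h2ak, Hist1h2ai and Hist1h2ag were between 0.313 and 0.617 CPM in both libraries.

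H2B genes, which code for the partner of H2A in the nucleosome, were dominated by Hist1h2bp. It was at 32.5, 28.5, 34.5, 260.9 and 27.5 CPM from spermatogonia to elongating spermatids in control, and at 35.8, 18.5, 37.8, 268.6 and 21.4 CPM in cKO. In free RNA it was at 70.7 and 47.2 CPM, above its level in each of these stages other than round spermatids. In cKO the free RNA interval overlaps those of spermatogonia and of pachytene and later cells. In round spermatids cKO differed from control by 0.04 on the log2 scale (-0.004 to 0.09). Over all cells it was at 84.1 and 99.3 CPM, with round spermatids a larger share of kept cells in cKO.

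Most other H2B genes were highest in spermatogonia among the unsplit stages. Hist1h2bm, Hist1h2bb, Hist3h2ba, Hist1h2bj and Hist1h2br were higher still in the Stra8-high cells of both libraries. Hist1h2bm was at 86.7 CPM in control and 41 CPM in cKO spermatogonia (-1.08, -1.52 to -0.66) and at 28.3 and 7.0 CPM in early meiotic cells. Hist1h2bj was at 70.4 and 59.2 CPM in spermatogonia (-0.25, -0.65 to 0.14) and Hist3h2ba at 28.6 and 22.1 CPM, both within the fold. Hist1h2bb was past it, at 28.6 and 17.6 CPM (-0.70, -1.42 to -0.02). In Stra8-high cells Hist1h2bj had the opposite direction, at 83.6 CPM in control and 123 CPM in cKO (0.56, -0.16 to 1.24), an interval that includes 0. Hist2h2be, one of the few histone genes known to give polyadenylated transcripts outside S phase, was instead highest in pachytene and later cells, at 10.8 CPM in control and 9.94 CPM in cKO, and at 0.493 and 0 CPM in spermatogonia.

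Hist1h2bc was not a germ-cell transcript in the main. It was at 129 CPM in control and 131 CPM in cKO Leydig cells, at 66.7 and 68.9 CPM in Sertoli-gated cells, and at most 4.9 CPM in the 5 unsplit germ-cell stages. In Stra8-high cells it was at 7.38 and 14.8 CPM, from 6 and 3 UMIs. In free RNA it was at 54.2 and 53.6 CPM against 3.77 CPM in kept cells of both libraries, so that its germ-cell values lie below the free RNA level. Over all cells Hist2h2be was at 4.57 and 4.13 CPM, Hist1h2bm at 4.45 and 1.57, Hist1h2bj at 2.24 and 1.83, Hist3h2ba at 1.39 and 0.807 and Hist1h2bb at 1.2 and 0.525 CPM, while Hist1h2br (0.580 and 0.323) and Hist1h2be (0.354 and 0.222) stayed under 1 CPM.

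H3 genes, whose protein carries the lysine that KDM6A demethylates, were few in UMIs. Their sum in spermatogonia was 83.2 CPM in control and 50.1 CPM in cKO (-0.73, -1.14 to -0.34). Hist1h3c accounted for much of that, at 40.4 and 15.0 CPM (-1.43, -2.17 to -0.75). Hist1h3a had its highest CPM in round spermatids. It was at 14.8, 4.8, 1.6, 22.1 and 12.0 CPM by stage in control and 19.5, 2.3, 1.4, 23.4 and 11.5 CPM in cKO. Its intervals in spermatogonia and round spermatids overlap, at 9.97 to 21.1 and 20.5 to 23.9 CPM in control. In cKO they were 13.2 to 27.9 and 21.6 to 25.2 CPM, so its stage is not settled. In round spermatids its ratio was 0.08 (-0.08 to 0.24). Hist2h3c2 was at 4.4 CPM in control and 4.3 CPM in cKO pachytene cells, and Hist2h3c1, which shares 74.1% of its promoter's 50-base stretches with it, was at no more than 2.0 CPM in any germ-cell stage. Over all cells Hist1h3a was at 10.1 and 11.0 CPM, Hist2h3c2 at 3.46 and 3.38, Hist1h3c at 1.10 and 0.333 and Hist2h3c1 at 0.971 and 0.787 CPM. Hist1h3f, Hist1h3e and Hist1h3b were between 0.121 and 0.452 CPM.

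H4 genes, which code for the partner of H3, were spread over 3 stages. Among the unsplit stages Hist1h4d was highest in spermatogonia, at 99.5 CPM in control and 84.6 CPM in cKO (-0.23, -0.56 to 0.09). In Stra8-high cells it was at 194 and 133 CPM. Hist1h4h was highest in early meiotic cells, at 44.0 and 42.0 CPM (-0.07, -0.27 to 0.13). Hist1h4c was also highest there, at 49.2 and 24.6 CPM (-1.0, -1.24 to -0.76), and in spermatogonia it was at 37.4 and 20.8 CPM. Thus 2 H4 genes with the same highest stage differed in ratio, with intervals that do not overlap. Hist1h4a was highest in round spermatids, at 19.2, 5.7, 4.0, 71.5 and 18.2 CPM by stage in control and 20.2, 4.4, 4.2, 65.3 and 13.4 CPM in cKO. After thinning, 18.7% (16.9% to 20.5%) of control and 18.4% (16.6% to 20.3%) of cKO round spermatids had a Hist1h4a UMI, against 1.98% and 3.03% of Leydig cells, and 54.3% and 54.8% of round spermatids did without thinning, at median depths of 13125 and 12279 UMIs. Over all cells Hist1h4a was at 24.6 and 25.2 CPM, Hist1h4h at 7.93 and 6.82, Hist1h4d at 7.03 and 4.95, Hist1h4c at 6.97 and 3.8 and Hist1h4i at 1.00 and 0.949 CPM. Hist1h4k, Hist1h4n, Hist4h4 and Hist1h4j were between 0.202 and 0.391 CPM.

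Neighbouring genes differed in stage in some cases and in level in others. The start sites of Hist1h4a, a round spermatid gene, and Hist1h1a, a gene of spermatogonia and Stra8-high cells, are 2419 bases apart. Among the histone genes, 8 head-to-head pairs of an H2A and an H2B gene start within 164 to 249 bases of each other on opposite strands. In the pair of Hist1h2bp and Hist1h2an, 240 bases apart, the first had 21011 UMIs over both libraries and the second had 19. In the pair of Hist1h2bj and Hist1h2ag the UMIs were 479 and 102, and in that of Hist1h2ae and Hist1h2bg 189 and 5. Hist1h2ag had its highest CPM in spermatogonia from only 5 UMIs in control and 3 in cKO. In round spermatids it had 27 and 34 UMIs, and the intervals of its level in the 2 stages overlap, so its stage is not settled.

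Counted over genes, the difference between the libraries was one-sided. In spermatogonia 20 members had enough UMIs, of which 11 were lower in cKO and none higher, where 9.59% of all genes tested were lower and 1.90% higher. The 11 include Hist2h2aa1, whose level there cannot be told from free RNA within counting error in either library. They also include Hist1h1b, Hist1h1c and Hist1h1d, whose cKO intervals overlap those of cKO free RNA. Hist1h1c was at 52.7 CPM in cKO against 35.8 CPM in free RNA, and Hist1h1d at 9.11 against 2.98 CPM. The cKO levels of these H1 genes thus cannot be told from free RNA within counting error. Of the 11, 10 had an interval wholly below 0 and 6 an interval wholly past the fold. Interval counts over all genes are not given here, in this stage or in others. The 9 members within the fold had 6 with a ratio above 0, Hist1h2ap and Hist1h2ab among them. The median log2 ratio was -0.67 over the 20 members and -0.09 over all genes. The summed ratio, -0.55 (-0.62 to -0.48), moved to -0.15 (-0.24 to -0.06) when the 5 H1 genes were left out and to -0.85 (-0.94 to -0.76) when Hist1h2ap was left out. These genes thus moved it in opposite directions, and they were not left out together. With each cell thinned to 3000 UMIs, which weights cells equally, the ratio was -0.34 (-0.45 to -0.24) and 6 members were lower. The share of all genes past the fold was not counted under this or the other alternatives.

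In early meiotic cells 16 of 25 members were lower and 1 was higher, against 15.1% and 1.04% of all genes tested. Of the 16, Hist1h2bp was below its free RNA in both libraries (28.5 and 18.5 against 70.7 and 47.2 CPM). In cKO Hist1h1c was also below it (11.3 against 35.8 CPM), as were Hist3h2ba (2.34 against 6.46) and Hist1h3a (2.34 against 5.46). Hist1h1d (1.23 against 2.98) and Hist1h3c (0.493 against 1.49) were below theirs there too. The median log2 ratio was -1.0 over the members and -0.13 over all genes, and the sum had a ratio of -1.05 (-1.11 to -0.99). All 16 had an interval below 0, and 9 members were lower at a minimum of 5000 UMIs a cell. Within the Stra8-high range 7 of 13 members were lower (13.5% of all genes) and none was higher (5.39%), with a summed ratio of -0.52 (-0.64 to -0.39). The 7 were Hist1h1a, Hist1h1c, Hist1h1e, Hist1h2bm, Hist1h2bb, Hist1h2ab and Hist1h4c, of which 5 had an interval below 0 (not Hist1h2bb and Hist1h2ab) and 2 an interval wholly past the fold. Within the Stra8-low range 8 of 18 were lower (13.3%), all with an interval below 0, and Hist3h2a was higher (1.01%). Of the 8, Hist1h2bp, Hist1h1c and Hist1h3a were below their free RNA in both libraries and Hist1h1d in cKO. The summed ratio was -0.65 (-0.73 to -0.58), with a cKO sum that cannot be told from free RNA. Without the H1 genes the Stra8-high ratio was -0.06 (-0.22 to 0.10), an interval that includes 0, and 4 members were lower.

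**Figure D3:**
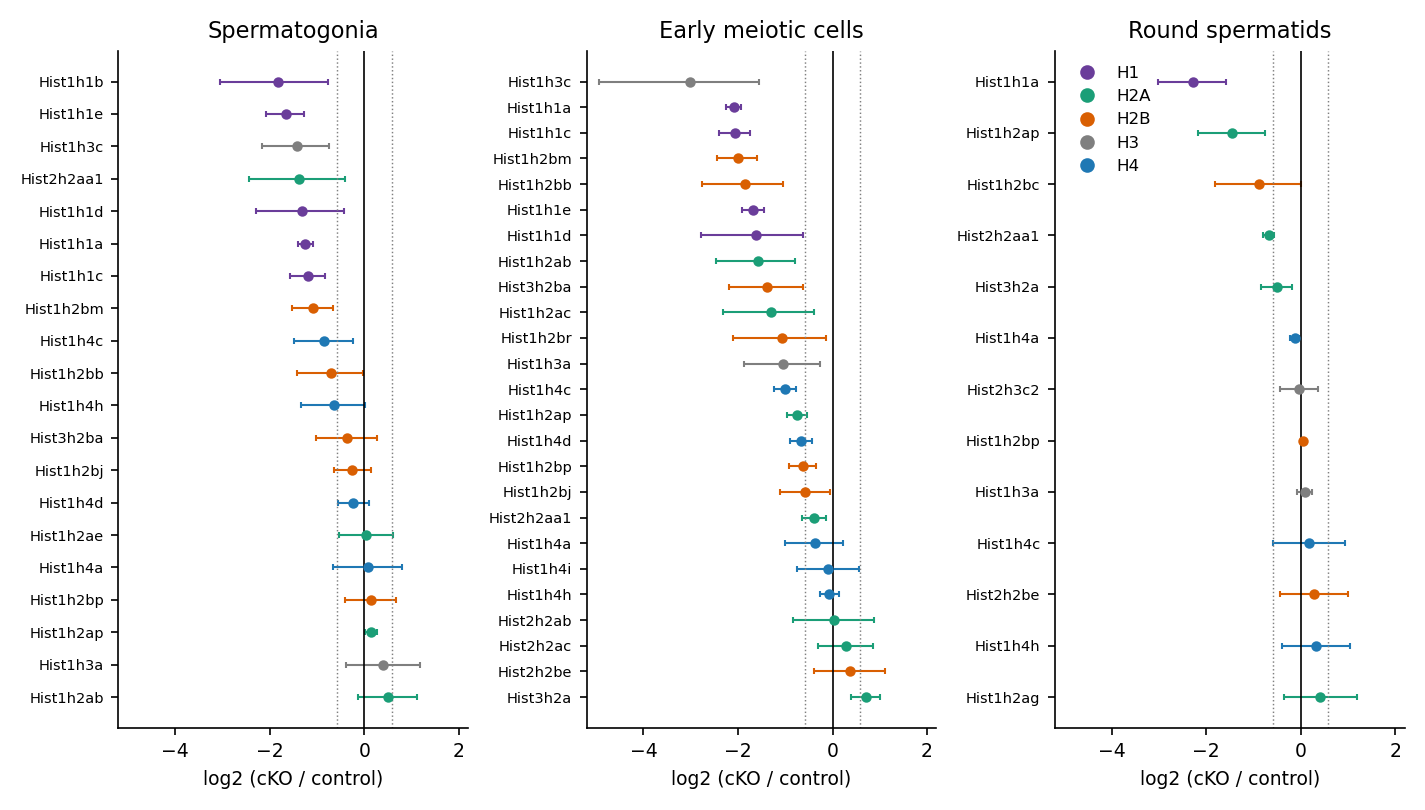
log2 ratio of cKO over control for each gene with 50 UMIs or more in the cells compared, in spermatogonia (20 genes), early meiotic cells (25 genes) and round spermatids (13 genes), coloured by class. Bars are 95% counting intervals, and dotted lines mark 1.5-fold; all 5 H1 genes lie left of the dotted line in spermatogonia, where Hist1h2ap lies at 0.15.

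In pachytene and later cells and in round spermatids the summed ratios were close to 0, and that of elongating spermatids was between these and the ratio in spermatogonia. After thinning to 3000 UMIs the elongating ratio was instead further below 0 than the spermatogonial one. In pachytene and later cells 1 of 18 members was lower (Hist2h3c1; 5.21% of all genes) and 1 was higher (Hist1h2ap; 1.63%), and the summed ratio was -0.10 (-0.16 to -0.03). Hist1h2ap was there at 0.753 and 2.34 CPM, below its free RNA of 9.29 and 7.45 CPM, with a UMI in 23 cells of each library. In round spermatids 4 of 13 members were lower (8.71% of all genes) and none was higher (1.64%), with a summed ratio of -0.09 (-0.13 to -0.06). The ratio was -0.31 (-0.37 to -0.26) without Hist1h2bp, and after thinning to 3000 UMIs none of the members was past the fold, Hist2h2aa1 being at -0.51 (-0.78 to -0.24). Of those 4, Hist1h1a (3.58 and 0.740 CPM) and Hist1h2ap (2.31 and 0.846 CPM) were at levels below their free RNA, with overlapping intervals for Hist1h1a in control. Hist1h2bc was at 1.10 and 0.599 CPM with an interval that reaches above 0, and only Hist2h2aa1 was abundant (-0.68, -0.79 to -0.56). The other 3 genes with their highest CPM in round spermatids, Hist1h2bp, Hist1h4a and Hist1h3a, differed by a log2 ratio of -0.13 to 0.08. In elongating spermatids 6 of 14 members were lower (8.6% of all genes) and none was higher (0.89%), and the sum was at 103.8 CPM in control and 76.9 CPM in cKO (-0.43, -0.51 to -0.35), below free RNA in both libraries. After thinning 3 members were lower there, and at a fold of 2 only 1 was. In Leydig cells neither of the 2 members with enough UMIs was past the fold, where 12.0% of all genes were lower. In Sertoli-gated cells 4 of 10 members were lower (5.91% of all genes) and Hist1h2ap was higher (5.76%). Over all kept cells 17 of 41 members were lower and none was higher, against 5.17% and 2.0% of all genes.

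Other markers moved with the spermatogonial difference. In spermatogonia all 13 spermatogonial markers had UMIs in both libraries, with summed levels of 1722 CPM in control and 1923 CPM in cKO. The 12 early meiotic markers were summed at 2627 and 2166 CPM, and the 10 elongating spermatid markers, whose transcripts are abundant in free RNA, at 22345 and 30095 CPM. With mitochondrial genes and elongating spermatid markers taken out of the denominator the summed histone ratio was -0.53, and with cells near the gate's edge left out it was -0.56. The part of the meiotic markers in the result was not tested.

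The pathway genes around the histone clusters are read against the same background, 9.59% of all genes lower and 1.90% higher in spermatogonia. Among 25 S phase genes in spermatogonia 2 were lower (Ccne1 and Ccne2, the cyclins that drive S phase entry), a share near that background, and none was higher, with a median log2 ratio of -0.12 against -0.09 over all genes. The most abundant of them, Dnmt1 (244 and 197 CPM), Lig1 (194 and 211 CPM) and Mcm7 (171 and 182 CPM), were within the fold. Of 15 histone mRNA processing genes with enough UMIs, 2 were lower and 1 higher. Npat, whose protein switches on histone gene transcription in S phase, was lower in spermatogonia at 90.6 and 56.6 CPM (-0.68, -1.06 to -0.30) and in early meiotic cells at 49.6 and 23.7 CPM (-1.07, -1.31 to -0.83). It was also lower past the fold in pachytene and later spermatocytes, in Sertoli-gated cells and over all kept cells. In Stra8-high cells it was not among the genes counted as lower. Ncbp1, a cap-binding subunit, was at 142 and 92.4 CPM in spermatogonia, and Lsm11, a U7 particle protein, was higher there at 14.8 and 28.6 CPM. Slbp, the stem-loop binding protein, was at 235 and 227 CPM (-0.05, -0.25 to 0.16), and Casp8ap2, a partner of NPAT, at 240 and 185 CPM.

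In early meiotic cells, where 15.1% of all genes were lower, 3 of 16 processing genes were lower, a share near that background. They were Npat, Eri1 (a 3′ exonuclease that trims histone mRNA) and Cstf2 (a cleavage factor). Of 22 S phase genes 5 were lower, among them Mcm4, Mcm5, Rrm2 and E2f1. Histone chaperones had 0 of 11 past the fold in spermatogonia, where Nasp was at 1324 and 999 CPM, and Rbbp7 alone in early meiotic cells (29.1 and 12.1 CPM). Of 10 G2 and mitosis genes 3 were lower in both stages, Mki67, Bub1 and Kif11. Replication-independent histone genes, which are transcribed through the cell cycle, had 0 of 10 past the fold in spermatogonia, with H3f3b at 2086 and 1954 CPM. In early meiotic cells only H2afy2 was past it among them, while H3f3b, H2afz and H3f3a had ratios of 0.26, 0.29 and 0.26. Of the 3 testis histones left out of the gene set, Hist1h2aa was at 402 and 128 CPM (-1.66, -1.89 to -1.43) and Hist1h1t at 39.9 and 15.6 CPM in spermatogonia, and Hist1h2ba was within the fold.

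Because histone transcripts follow S phase, the cells of each stage and library were ranked by their summed S phase genes and cut into 3 equal groups. In spermatogonia the S phase sums of the lowest, middle and highest group were 1106, 2057 and 3230 CPM in control and 1075, 1979 and 3057 CPM in cKO. The histone sums in the same groups were 819, 1947 and 3972 CPM in control and 714, 1576 and 2518 CPM in cKO. The histone sum thus increased with the S phase sum in both libraries, and the gap between libraries was widest in the highest group. The groups were not alike in Stra8, which was at 157, 152 and 287 CPM in control and at 98.5, 287 and 177 CPM in cKO, and its part in the gap was not tested. In the highest group Hist1h1a was at 1236 and 456 CPM, Hist1h1e at 235 and 94.4, Hist1h1c at 243 and 85.2, Hist1h2bm at 170 and 64.5 and Hist1h2bp at 26.3 and 27.6 CPM. In early meiotic cells the S phase sums were 597, 1047 and 1711 CPM in control and 615, 1021 and 1536 CPM in cKO, so that the highest groups were not at a like level. The histone sums were 452, 368 and 1420 CPM in control and 283, 217 and 550 CPM in cKO, and Stra8 in the highest group was at 207 and 78.8 CPM.

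**Figure D4:**
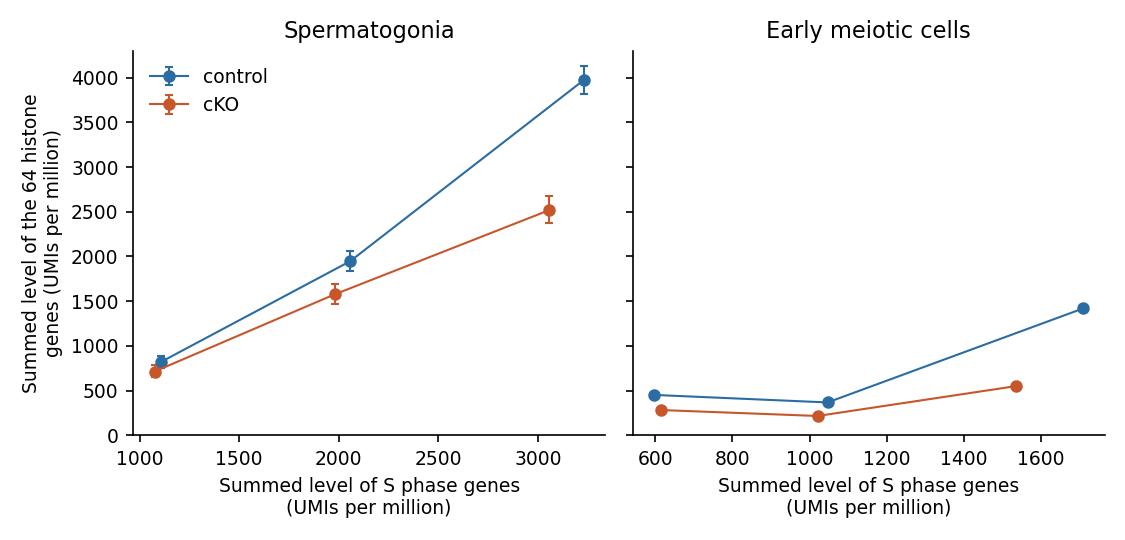
Summed histone level against summed S phase gene level, both in CPM, for 3 equal groups of cells in spermatogonia (left) and early meiotic cells (right), control in blue and cKO in orange, with 95% counting intervals on the histone level. In each group the cKO point lies below the control point, most of all in the highest group (3972 and 2518 CPM in spermatogonia), which in early meiotic cells lies at a lower S phase sum in cKO (1536 CPM) than in control (1711 CPM).

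Cells heavily loaded with histone transcripts made up a smaller share of the early meiotic gate in cKO. With each cell thinned to 3000 UMIs, 31.2% (25.7% to 37.1%) of control and 25.7% (20.1% to 31.9%) of cKO spermatogonia had 10 histone UMIs or more. In Stra8-high cells the shares were 71.1% (62.9% to 78.4%) and 44.4% (27.9% to 61.9%), and in the whole early meiotic gate 8.92% (7.42% to 10.6%) and 2.62% (1.65% to 3.94%). Without thinning they were 46.2% and 39.6% in spermatogonia, 82.4% and 66.7% in Stra8-high cells and 12.8% and 4.29% in the gate. Among Leydig cells no thinned cell of 101 in control or 99 in cKO was so loaded, which at 3 counts of the total allows a share of up to 2.97% and 3.03% (exact upper limits 3.59% and 3.66%). The spermatogonial intervals overlap, and those of the early meiotic gate do not.

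Open chromatin at the promoters was read from the authors' ATAC-seq peaks in cKIT+ spermatogonia, whose fold enrichment is the authors' own value. A peak lay over 33 and 36 of the 57 promoters in the 2 control libraries and over 32, 32 and 34 in the 3 cKO libraries, while the number of peaks in a library ran from 14635 to 40497. In all 5 libraries 28 of 57 (49.1%) had a peak, against 21.9% of all promoters, and 36 of 57 (63.2%) had one in at least 1 library, against 43.5%. A peak that lies over several neighbouring promoters counts for each of them, so these promoters are not all separate peaks. By class, 10 of 12 H4, 7 of 14 H2B, 6 of 16 H2A, 3 of 10 H3 and 2 of 5 H1 promoters had a peak in all 5.

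The 4 promoters shown above of genes that were lower in cKO had a peak in all 5 ATAC libraries. At Hist1h1a the peak fold was 2.88 and 3.10 in control and 2.82, 3.16 and 2.70 in cKO. At Hist1h1c it was 5.75 and 5.41 in control and 5.94, 5.50 and 5.98 in cKO. At Hist1h2bm it was 5.25 and 5.24 in control and 5.36, 5.71 and 6.17 in cKO, and at Hist1h4c 6.71 and 6.61 in control and 6.57, 7.43 and 6.49 in cKO. The control and cKO values overlap at 3 of these 4 promoters, and at Hist1h2bm every cKO value is above both control values. Other genes that were lower did not all have a peak in each library. Hist1h1d had peaks of 3.92 and 3.79 in control and of 3.68 and 3.70 in cKO replicates 1 and 3, with none in cKO replicate 2. Hist1h2ab, which was lower in early meiotic cells, had peaks in both controls and none in cKO replicate 1. Hist1h1e, Hist1h1b and Hist2h2aa1 had no peak in any library.

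The promoter of Hist1h4a, whose transcript is a round spermatid one, had a peak in all 5 libraries (3.89 and 3.42 in control, and 4.07, 3.68 and 3.17 in cKO). The promoter of Hist1h2bp had none. No peak lay over any of the 8 chromosome 3 promoters, Hist2h2aa1 included, nor over 11 of 22 in the proximal block of chromosome 13, against 2 of 24 in the distal block. Of 11 promoters that share a 50-base stretch with another promoter of the table, 9 had no peak in any library, and of the 46 that share none 12 had no peak; the part of reads that map to several places was not tested. Of the 8 head-to-head pairs, 4 had a peak over both promoters in all libraries and 3 had none over either. The windows of such a pair overlap, so a shared outcome is largely given by the layout. Hist1h2ag and Hist1h2bj, for example, had the same peak fold in each library.

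**Figure D5:**
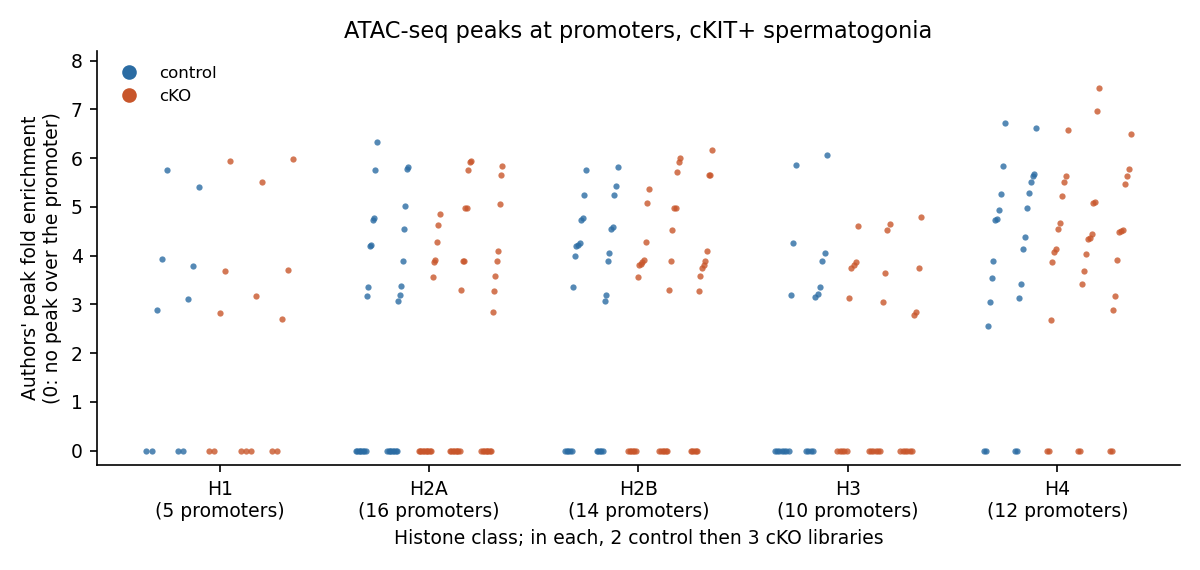
The authors' ATAC-seq peak fold enrichment over each of 57 histone promoters in 2 control (blue) and 3 cKO (orange) libraries of cKIT+ spermatogonia, by class, each point a promoter and 0 meaning no peak. The folds of promoters with a peak run from 2.55 to 7.43, in like ranges for both genotypes.

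Called regions of H3K27me3, the mark that KDM6A removes, were all but absent from these promoters. An H3K27me3 region lay over none of the 57 promoters in all 5 libraries, against 3.52% of all promoters, and over 1 in at least 1 library, against 15.5%. That promoter was Hist3h2ba, in control replicate 2. No cKO library had a region over a histone promoter, though 5.09% to 11.1% of all promoters had one in the cKO libraries. The IgG library had none over a histone promoter. These promoters lie in a few clusters and some windows overlap, so they are not all separate sites. The part of reads that map to several places was not tested here either, and a promoter without a called region may still carry some of the mark.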

How the data were processed

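Single-cell libraries were made from dissociated whole testis with a 3′ droplet kit, per the labels' protocols. The authors deposited unfiltered UMI counts per gene and barcode, made with Cell Ranger 4 per the file headers and with mm10 named in the submitters' processing notes, which also name Seurat 4.1.0. No label or header states whether the counting used strand or how reads from near-identical histone copies were assigned. The authors' ATAC-seq peak lists give a fold enrichment (a ratio) and a −log10 q-value per peak, and their SEACR region lists give a signal per region, per the file formats and the submitters' processing notes. The bulk RNA-seq tables pair no transcript with a gene and were not analysed here.

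Barcodes with 3000 UMIs or more were kept, and no doublet caller was run. Each cell's log(UMIs per 10000 + 1) was standardised per gene and averaged over 10 marker lists, and the highest list named the stage if 3 of its markers had a UMI. Cells led by less than 0.25 count as near the gate's edge. Counts were summed per library and stage and given as CPM with exact Poisson intervals, and ratios have exact conditional binomial intervals. Shares have exact Clopper-Pearson intervals. These cover counting error, not the spread between animals, so no p-value is given. Members with 50 UMIs or more over both libraries are named, and the 3 most abundant of each class are given by stage. From the pathway lists the 3 most abundant genes or those past the fold are named. The fold call was tested on simulated counts. Promoters are RefSeq sequences of GRCm38.p6, and a peak was counted when it overlapped the 300-base window by 1 base (bedtools 2.31.1). Python 3.11.15, numpy 2.4.6, scipy 1.17.1 and pandas 2.3.3 were used. The genes, marker lists and pathway lists were chosen with earlier results of these data known. Alternatives were other UMI minimums (2000 and 5000), a filter on genes and mitochondrial share, a stricter gate, thinning, another denominator, a gene minimum of 20 UMIs, a fold of 2 and leaving out the most abundant gene. A Stra8 minimum of 3 UMIs and leaving out the H1 genes were chosen after seeing the data. A gene of the S phase list is not reported here by name.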

Additional observations from a re-analysis of the deposited data

How the results depend on the processing

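With 1 library for each genotype, no spread between animals was measured, and the depth limits gene-level statements to the members with 50 UMIs or more in a stage. No paired analysis was possible because each genotype has 1 single-cell library. All 147 log2 values recomputed under an alternative kept the sign of the value reported. Over all kept cells the summed ratio of -0.24 became -0.17 at a minimum of 5000 UMIs and -0.51 without Hist1h2bp. Spermatogonia exceeded pachytene cells in control by 4.07 on the log2 scale at a minimum of 2000 UMIs, by 4.26 with the stricter gate and by 4.25 without the most abundant gene. In cKO they did so by 3.50 at a minimum of 5000 UMIs and by 3.83 with the stricter gate. The cKO excess was 3.59 without the most abundant gene and 3.86 after thinning. The gene left out was Hist1h2ap in spermatogonia and Hist1h2bp in pachytene cells, so 4.25 and 3.59 compare different gene sets. Round spermatids exceeded pachytene cells in control by 1.76 at 2000 UMIs, 1.90 at 5000 UMIs, 1.97 with the stricter gate, 1.02 without Hist1h2bp and 1.69 after thinning, and in cKO by 1.998 with the stricter gate, 0.91 without Hist1h2bp and 1.72 after thinning.

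For the ratio of cKO to control, the summed value in spermatogonia was -0.47 at 2000 UMIs, -0.73 at 5000 UMIs, -0.85 without the most abundant gene, -0.34 after thinning and -0.15 without the H1 genes, and the 11 lower members became 6 after thinning and 6 without the H1 genes. In early meiotic cells it was -0.90 at 2000 UMIs, -0.89 at 5000 UMIs, -1.14 with the stricter gate, -0.80 without the most abundant gene, -1.17 after thinning and -0.58 without the H1 genes, and 9 members were lower at 5000 UMIs. In Stra8-high cells it was -0.26 without the most abundant gene, -0.39 at a Stra8 minimum of 3 UMIs and -0.055 without the H1 genes, with 4 lower members at a fold of 2 and 4 without the H1 genes. In Stra8-low cells it was -0.53 at 2000 UMIs, -0.54 at 5000 UMIs, -0.51 without the most abundant gene, -0.80 after thinning and -0.31 without the H1 genes, which left 4 lower members. In pachytene and later cells it was -0.20 without the most abundant gene, and the 1 lower member became 3 at 2000 UMIs, 2 at 5000 UMIs, 3 at 20 UMIs for a gene and 0 at a fold of 2. In round spermatids it was -0.31 without Hist1h2bp, and the 4 lower members became 0 after thinning, 9 at 20 UMIs for a gene and 2 at a fold of 2. In elongating spermatids it was -0.54 after thinning, and the 6 lower members became 3 after thinning, 1 at a fold of 2 and 3 without the H1 genes. The most abundant gene left out was Hist1h2ap in spermatogonia and Hist1h1a in early meiotic cells and both Stra8 ranges. In pachytene cells it was Hist1h2bp. Thinning leaves fewer UMIs per gene, so that fewer members reach the minimum. The cause of the other changes was not tested. The share of all genes past the fold was not counted under these alternatives, so the changed counts have no background beside them.

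The share of cells with any histone UMI was 82.7% in control and 77.0% in cKO spermatogonia after thinning, and 96.6% and 90.1% without it. In early meiotic cells it was 74.2% and 57.9% after thinning and 93.7% and 86.7% without, and in round spermatids 69.8% and 68.4% after thinning and 93.7% and 96.1% without.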
